A study of Mus musculus with 15 samples.

Results

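The set comprised 8 long noncoding RNA (lncRNA) genes, namely Neat1, Malat1, Meg3, Kcnq1ot1, Gas5, Snhg1, Snhg11 and H19. They were chosen by name, and the level of a gene in a mouse was the sum of the FPKM (fragments counted per kilobase of length and scaled to the total mapped in the library) of all transcripts carrying its name whose class code marks a match to, or a structural overlap with, the annotated gene. All 8 were among the 33058 genes listed in this way, and they held 77 of the 129029 listed transcripts. RNA was measured in the whole kidney of 15 male C57BL/6 mice, 5 each at 3, 12 and 24 months of age, with 1 library per mouse, which the labels describe as ribosome-depleted total RNA. No mouse carried a treatment or an altered allele, and the question of the design was which RNAs differ between young and old kidneys. Mice are called here by age and by the number in their label, 5 to 9 at 3 months, 17 to 21 at 12 months and 31 to 35 at 24 months.

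Malat1 and Neat1 are neighbouring lncRNAs retained in the nucleus. Malat1 gathers in nuclear speckles with splicing factors, and Neat1 is the scaffold of paraspeckles, which need its long isoform. Kcnq1ot1, H19 and Meg3 belong to imprinted clusters and are transcribed from 1 parental copy. Kcnq1ot1 is made from the paternal allele and silences neighbouring genes in cis, while H19 and Meg3 are maternal transcripts that are abundant in the embryo and low in most adult tissues. Gas5 and Snhg1 are small nucleolar RNA (snoRNA) host genes: snoRNAs are cut out of their introns, and the spliced exons that remain are degraded by nonsense-mediated decay. Snhg11 is another host gene, best known from neurons.

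The aligned sequence per library, worked out from the coverage and FPKM of its transcripts, was between 5.03 and 8.03 Gb, and its median was 6.04 Gb in the youngest, 7.17 Gb in the middle and 7.00 Gb in the oldest mice. Any pair of libraries correlated over genes with a Pearson r between 0.957 and 0.973, and no library was set aside. Kidney markers were abundant (Slc34a1 of the proximal tubule averaged 892 FPKM and Umod of the thick ascending limb 845 FPKM), whereas the neuronal marker Snap25 averaged 0.00423 FPKM. In whole tissue, fewer cells of a type and less RNA per cell cannot be told apart.

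Some of the sequences on which the results turn are given first. The most abundant Malat1 transcript by FPKM was not the long nuclear RNA of 6983 bases (ENSMUST00000172812) but a spliced RNA of 485 bases from its 5′ end (ENSMUST00000173499), with exons at chr19:5802238-5802671 and chr19:5801916-5801966 on the minus strand (GRCm38). Both exons lie inside the long transcript, so only the junction between them sets the short RNA apart. The last 60 bases of exon 1 are shown in lower case and the 51 bases of exon 2 in capitals, followed by both ends of the 271-base intron with its splice site dinucleotides in capitals.
Short Malat1 transcript, end: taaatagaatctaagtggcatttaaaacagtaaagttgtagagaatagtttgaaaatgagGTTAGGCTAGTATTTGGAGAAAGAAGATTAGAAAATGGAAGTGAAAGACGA
Intron, first 30 bases: GTgtagttttaaaagattgagaaaagtagg
Intron, last 30 bases: agagaaaccctgtcttgaaaaaacaaaaAG

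A circular RNA of Malat1 and one of Gas5 were also listed, both of the intronic type (ciRNA). The Malat1 circle covered 673 bases at chr19:5796331-5797003 on the minus strand, and its first base is the first base of the annotated intron of another Malat1 transcript (ENSMUST00000173314). Its join is shown with the last 40 bases in lower case and the first 40 in capitals. The Gas5 circle, chr1:161037548-161037994 on the plus strand, has exactly the borders of an intron present in 14 annotated Gas5 transcripts, and that intron holds the snoRNA Snord80, shown with its C box (TGATGA) and D box (CTGA) in capitals. All sequences are from GENCODE M21 transcripts of GRCm38.
Malat1 circle, join: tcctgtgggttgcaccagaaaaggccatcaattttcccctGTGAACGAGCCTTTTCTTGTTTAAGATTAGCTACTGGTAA
Snord80: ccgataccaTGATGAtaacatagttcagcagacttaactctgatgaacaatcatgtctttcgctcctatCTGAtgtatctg

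Per length, the levels spanned a wide range. Malat1 had the highest summed FPKM, with a mean over the 15 mice of 679 ± 487 (SD), followed by Gas5 at 20.2 ± 3.41, Snhg11 at 15.6 ± 4.11, Neat1 at 6.30 ± 2.32, Snhg1 at 4.87 ± 1.23 and Kcnq1ot1 at 3.55 ± 0.662. Meg3, at 0.127 ± 0.0894, and H19, at 0.0249 ± 0.0305, were barely present, and H19 was listed at 0 in 4 mice. Malat1 was above Gas5, and Kcnq1ot1 above Meg3, in every mouse with no overlap between the ranges. Neighbours in between overlapped: Gas5 was above Snhg11 in 10 of 15 mice, Neat1 above Snhg1 in 11 and Snhg1 above Kcnq1ot1 in 13, while Snhg11 exceeded Neat1 in all 15 although their ranges met.

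**Figure D1:**
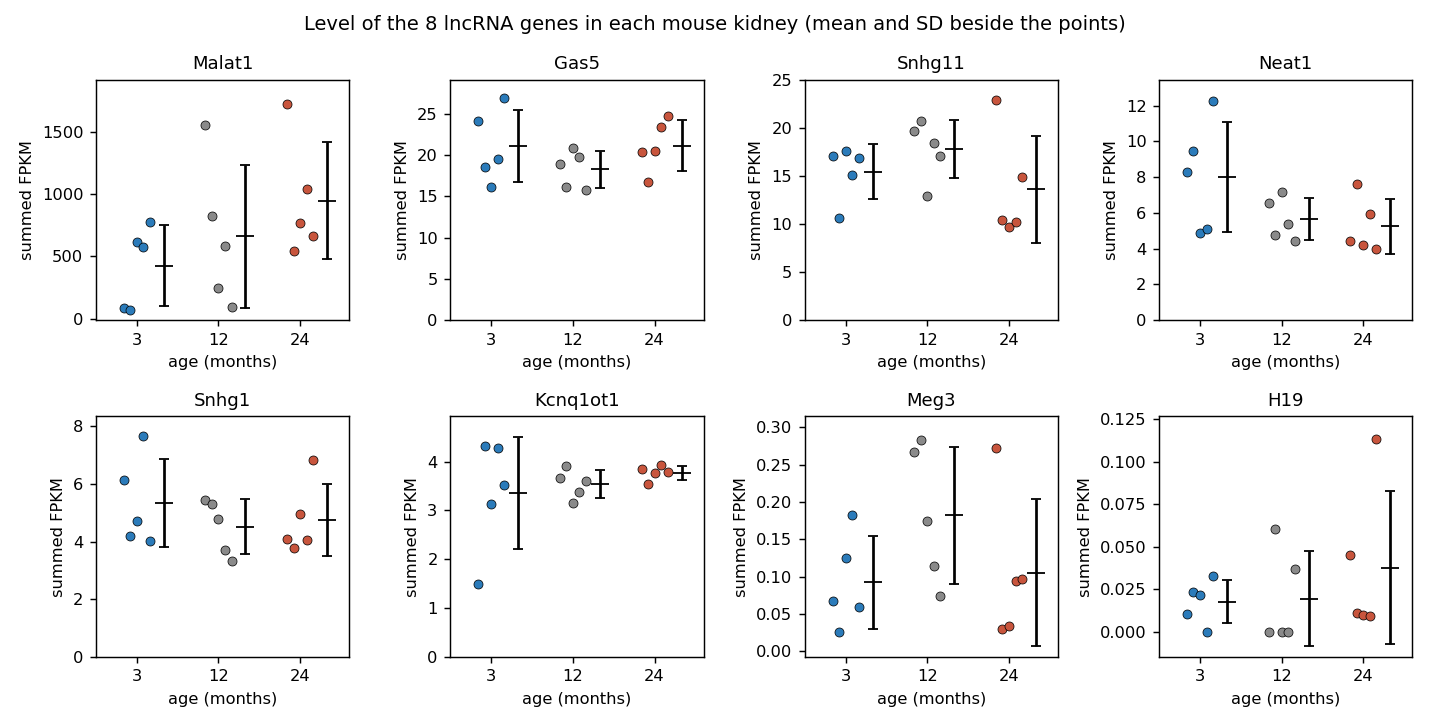
Summed FPKM (linear axis) of each gene in each of 15 kidneys by age in months; 1 point is 1 mouse, and the bar beside the points is the mean with the SD of 5 mice. Malat1 ran from 70.4 to 1730, while Kcnq1ot1 at 24 months stayed between 3.53 and 3.92.

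No change with age was detected in any of the 8 genes by the test used. It was limma on log2(FPKM + 1), fitted over all genes that were above 0 in any mouse of the compared ages, with Benjamini-Hochberg adjustment and a threshold of 0.05. All 8 genes passed that filter in all 3 comparisons. At 24 against 3 months 0 of 8 passed the adjusted threshold, beside 386 of 31755 genes (1.22%); 0 of 8 had an unadjusted p under 0.05, beside 14.9% of genes; and in 0 of 8 did the values of both ages stand apart, beside 4.73%. At 12 against 3 months the 3 counts were again 0 of 8, beside 0.250%, 14.3% and 4.11% of genes. At 24 against 12 months they were also 0 of 8, beside 0.00310%, 6.43% and 1.07%. The estimates of these comparisons with 12 months were largest for Malat1, at 0.67 (12 against 3 months) and 0.96 (24 against 12 months) on the log2 scale, followed by Neat1 at -0.39 for 12 against 3 months and Snhg11 at -0.41 for 24 against 12 months. These p-values rest on how far mice of the same age, 5 at each, differ.

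The intervals show what size of change the 5 mice per age leave possible. For Gas5 the 95% interval at 24 against 3 months ran from 0.80- to 1.27-fold on the (FPKM + 1) scale, for Snhg1 from 0.68- to 1.22-fold, for Snhg11 from 0.60- to 1.23-fold and for Kcnq1ot1 from 0.84- to 1.53-fold. For Neat1 it ran from 0.48- to 1.05-fold. For Malat1 it ran from 0.98- to 9.81-fold, which leaves both no difference and a large one possible. The scale understates changes in genes of low level, most of all in Meg3 and H19, whose levels are far below the added 1.

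**Figure D2:**
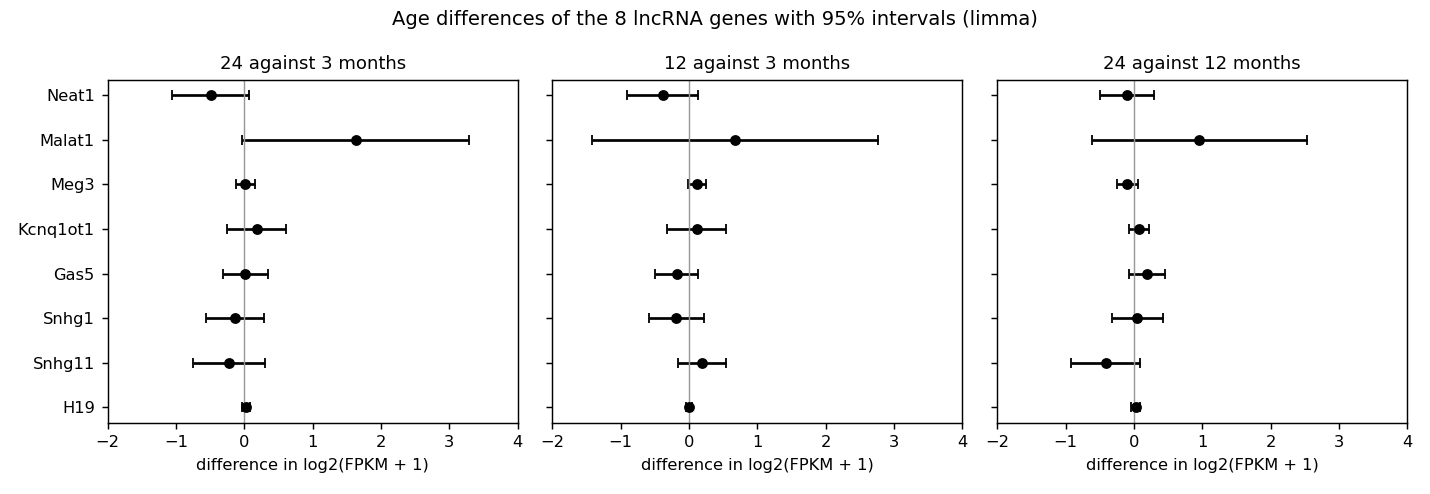
Difference in log2(FPKM + 1) between ages for the 8 genes in 3 comparisons; points are limma estimates and bars 95% intervals. Every interval includes 0, and that of Malat1 is the widest in each comparison.

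Malat1 had the largest estimate and the largest spread. Its summed FPKM was 87.9, 70.4, 619, 575 and 774 in mice 5 to 9 at 3 months. It was 1555, 826, 249, 580 and 95.7 in mice 17 to 21 at 12 months, and 1730, 542, 772, 1039 and 665 in mice 31 to 35 at 24 months. The lowest mice were 2 at 3 months and 2 at 12 months, while the old mice ran from 542 to 1730. Of the old mice 4 lay within the range of the other ages and mouse 31 above it. The estimate for 24 against 3 months was 1.63 on the log2 scale (SE 0.74, adjusted p = 0.346 by limma, unadjusted p of 0.0535), and the within-age SD of Malat1 on that scale, 1.37, was larger than that of 98.9% of the 13446 genes with a mean of at least 1 FPKM, whose median was 0.25.

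Much of the spread in summed FPKM lay in the short transcript, and without it the range over the 15 mice was 3.54-fold. On the log2(FPKM + 1) scale its within-age SD was 4.15. The assembled Malat1 forms MSTRG.17547.1 and MSTRG.17547.2 also varied widely, with SDs of 1.48 and 1.88. ENSMUST00000173499 was listed at 0 in 4 mice, namely 5 and 6 at 3 months and 19 and 21 at 12 months. In the other 11 mice it ran from 390 FPKM in mouse 8 to 1546 FPKM in mouse 31, with nothing in between 0 and that range. The 4 mice at 0 were also the 4 lowest in summed FPKM. Over the 15 mice this transcript made up 77.2% of the summed FPKM of Malat1.

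The long transcript varied much less. ENSMUST00000172812 had 59.4, 63.1, 170, 148 and 140 FPKM in the 5 young mice and 125, 110, 62.8, 127 and 43.6 FPKM in the 5 old mice, with 74.1 to 149 FPKM at 12 months. The means were 116 ± 51.4 at 3 months, 108 ± 29.998 at 12 months and 93.9 ± 38.3 at 24 months (SD, n = 5), and the log2 difference between 24 and 3 months was -0.29 (adjusted p = 0.811 in limma), of the opposite sign to that of the sum. An assembled spliced form of 8118 bases (MSTRG.17547.1) averaged 9.41 ± 7.33 FPKM at 3 months and 42.4 ± 22.5 FPKM at 24 months. It was at 0.936, 1.89, 15.6, 14.3 and 14.4 FPKM in the young mice, at 27.9, 58.2, 88.4, 30.6 and 2.41 FPKM at 12 months and at 37.6, 10.9, 51.4, 72.7 and 39.6 FPKM in the old mice. For 24 against 3 months its log2 difference was 2.34 (adjusted p = 0.444 in limma, unadjusted p of 0.0101), and the ages overlapped, with old mouse 32 at 10.9 FPKM and young mouse 7 at 15.6 FPKM.

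FPKM divides by length, so a fragment adds more to a sum in a short transcript than in a long one. Weighting each transcript by its length instead, which gives the scaled number of fragments that a gene received with no division by length (here FPM), narrowed the range of Malat1 from 24.6-fold to 4.47-fold over the 15 mice. In FPM Malat1 had 1086 ± 510 at 3 months, 1411 ± 527 at 12 months and 1506 ± 546 at 24 months, a ratio of old to young of 1.39 (exact 2-sided permutation test over all assignments of the 10 mice, p = 0.246). The log2 difference of the gene fit fell from 1.63 to 0.56 (adjusted p = 0.577 in limma). The within-age SD of Malat1 in FPM was 0.67 on the log2 scale, with 88.9% of the 13446 genes below it. Of the mice without the short transcript, 5, 6 and 21 had 585, 477 and 642 FPM, while mouse 19 had 1792 FPM. This weighting was chosen after the data were seen.

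Reads of this locus were also listed under other names. Gm20417 (425 bases in 2 exons, chr19:5797562-5798549) and Gm37376 (453 bases, chr19:5801941-5802393) are annotated inside Malat1 on the plus strand, and they had between 789 and 1578 FPKM and between 650 and 1025 FPKM. Gm37376 lies opposite 26 bases of exon 2 of the short transcript, its whole 271-base intron and 156 bases of exon 1. The library kit keeps strand, but the strand setting of the assembly is not given in the sources used here, so reads of Malat1 and of these opposite genes may not be fully separated. With both added, the locus had 1948 ± 497 FPM at 3 months, 2204 ± 585 at 12 months and 2423 ± 604 at 24 months, and Malat1 itself took between 36.5% and 69.1% of that total. The range over the 15 mice was 2.53-fold, and the ratio of old to young was 1.24 (exact 2-sided permutation test, p = 0.206).

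**Figure D3:**
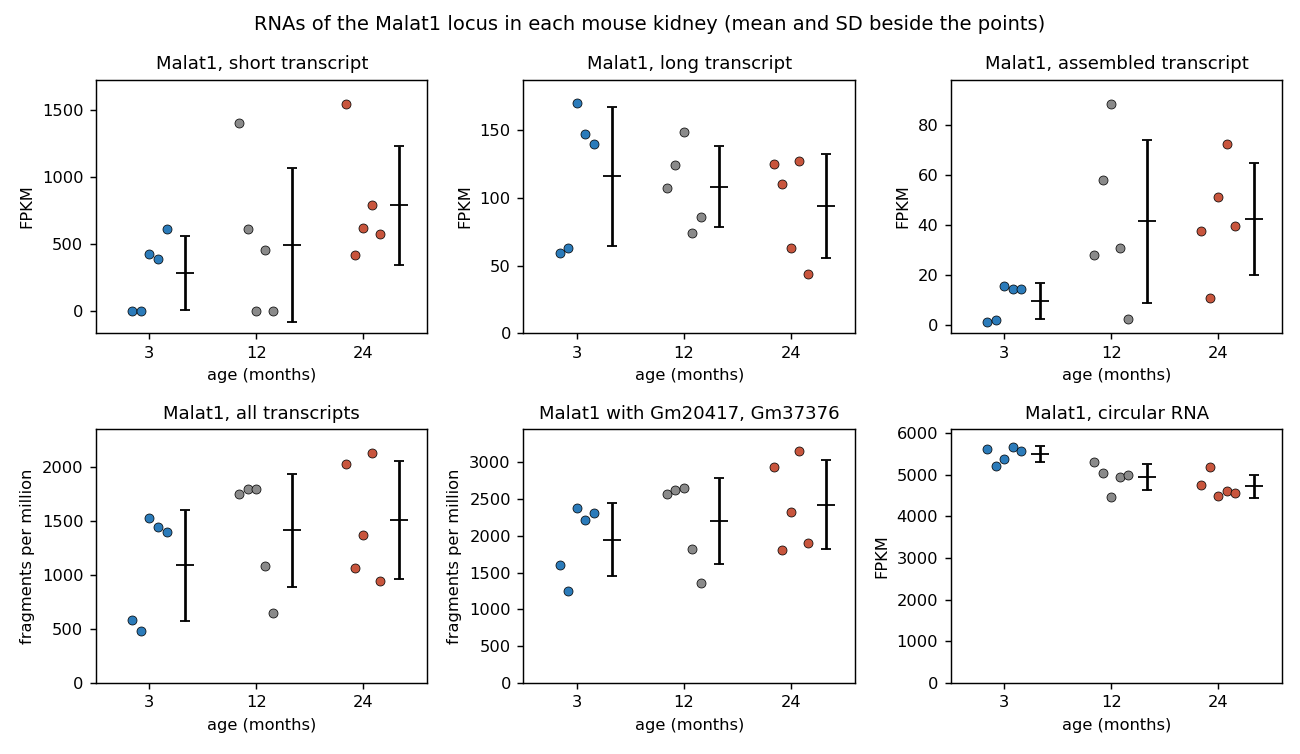
Transcripts of Malat1 (ENSMUST00000173499, ENSMUST00000172812 and MSTRG.17547.1, FPKM), the gene alone and with the opposite genes Gm20417 and Gm37376 (FPM), and the Malat1 circle (FPKM) in each mouse by age in months, with mean and SD. The short transcript stood at 0 in 4 mice, the long one between 43.6 and 170 FPKM.

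The Malat1 circle was the most abundant of 11929 listed circular RNAs, with estimated counts between 111245 and 155850 and between 1.41% and 1.76% of all circular counts. Its whole sequence also lies inside the long linear Malat1 transcript, so only reads across the join are particular to a circle. Whether reads of the linear RNA entered these values was not tested. The deposited FPKM were 5613, 5214, 5392, 5679 and 5573 in the young mice, 5310, 5044, 4463, 4958 and 4988 at 12 months and 4745, 5199, 4493, 4619 and 4560 in the old mice. The values of young and old mice did not overlap, by a narrow margin, and the means were 5494 ± 189 and 4723 ± 282 (SD, n = 5; exact 2-sided permutation test, p = 0.00794, the smallest that 5 against 5 mice can give). Such a separation was seen in 9.55% of circles. In the count test, edgeR with its own scaling, the difference was -0.16 on the log2 scale with an adjusted p of 0.306 at 24 against 3 months, and DESeq2 gave an adjusted p of 0.0992. These were the lowest values of either listed circle in any comparison for DESeq2, and for edgeR the lowest unadjusted p was 0.126. At an adjusted edgeR p under 0.05 there were 0 of 2 (beside 13.3% of circles at 24 against 3 months, 6.63% at 12 against 3 months and 0.738% at 24 against 12 months).

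Neat1, by contrast, had a lower estimate at 24 than at 3 months. Its summed FPKM was 8.31, 9.46, 4.90, 5.11 and 12.3 at 3 months, 6.53, 4.75, 7.15, 5.37 and 4.40 at 12 months, and 4.42, 7.64, 4.23, 5.95 and 4.001 at 24 months. The 3 highest values were those of young mice 5, 6 and 9, while young mice 7 and 8 lay among the old ones. The log2 difference between 24 and 3 months was -0.49 (SE 0.25, adjusted p = 0.412 in limma, unadjusted p of 0.0810), with means of 5.25 ± 1.54 and 8.01 ± 3.10.

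Neat1 was split over 10 transcripts, 3 annotated and 7 assembled, and no single form led in most mice. The annotated long isoform of 20771 bases (ENSMUST00000173672, chr19:5824708-5845478), the form around which paraspeckles assemble, had the highest mean at 1.47 FPKM, or 23.3% of the sum. It was at 1.25, 2.13, 1.46, 1.75 and 3.99 FPKM in the young mice and at 0.72, 0.26, 0.59, 1.62 and 0.41 FPKM in the old mice. The means were 2.12 ± 1.10 and 0.722 ± 0.534, and old mouse 34 at 1.62 was the 1 old mouse inside the young range. At 12 months it was at 2.38, 1.056, 2.81, 0.34 and 1.20 FPKM, across both other ages. The log2 difference between 24 and 3 months was -0.84 (adjusted p = 0.433 in limma, unadjusted p of 0.00922).

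The annotated short isoform (ENSMUST00000174287, 3004 bases), named here after its values were seen because it is the other classical form of Neat1, averaged 0.696 ± 0.374 FPKM at 3 months and 0.406 ± 0.266 FPKM at 24 months (adjusted p = 0.727 in limma). Assembled forms ran past the annotated gene. MSTRG.17551.1 and MSTRG.17551.2, with means of 1.07 FPKM each, extended beyond the annotated 3′ end towards Malat1, the first by 13003 bases, and MSTRG.17551.1 reached 4.87 FPKM in old mouse 32 against at most 1.18 in all others. A rare annotated spliced form (ENSMUST00000174829) averaged 0.0477 ± 0.0403 FPKM at 3 months and 0.163 ± 0.112 FPKM at 24 months (adjusted p = 0.620 in limma, unadjusted p of 0.0452). A separate short RNA annotated within Neat1 on the same strand, Gm28006 (122 bases), had 7.25 to 11.9 FPKM and is not part of the sum. These forms overlap, and how the assembler divided reads between them was not tested.

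The share of the leading transcript was compared between 24 and 3 months in the 5 genes with at least 2 transcripts at a mean of 0.5 FPKM. The long isoform made up 26.8% ± 7.98 of Neat1 in young and 14.3% ± 8.77 in old kidneys (exact 2-sided permutation test, p = 0.0476), and the short transcript 43.3% ± 39.8 of Malat1 in young and 82.0% ± 5.66 in old kidneys (p = 0.0238 in the same exact test). After Benjamini-Hochberg adjustment over the 5 genes both stood at 0.119 in this exact permutation test. Leaving out 1 old mouse at a time, each of the 5 in turn, took the unadjusted p for Malat1 to between 0.0794 and 0.135, and leaving out 1 young mouse to between 0.00794 and 0.0238. For Neat1, leaving out any mouse but young mouse 5 or old mouse 34 took it to between 0.0556 and 0.0952 (exact permutation tests). The shares in Gas5, Snhg1 and Snhg11 differed by -3.27, -7.03 and 8.28 percentage points, with p of 0.556, 0.635 and 0.603 in the exact permutation test.

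**Figure D4:**
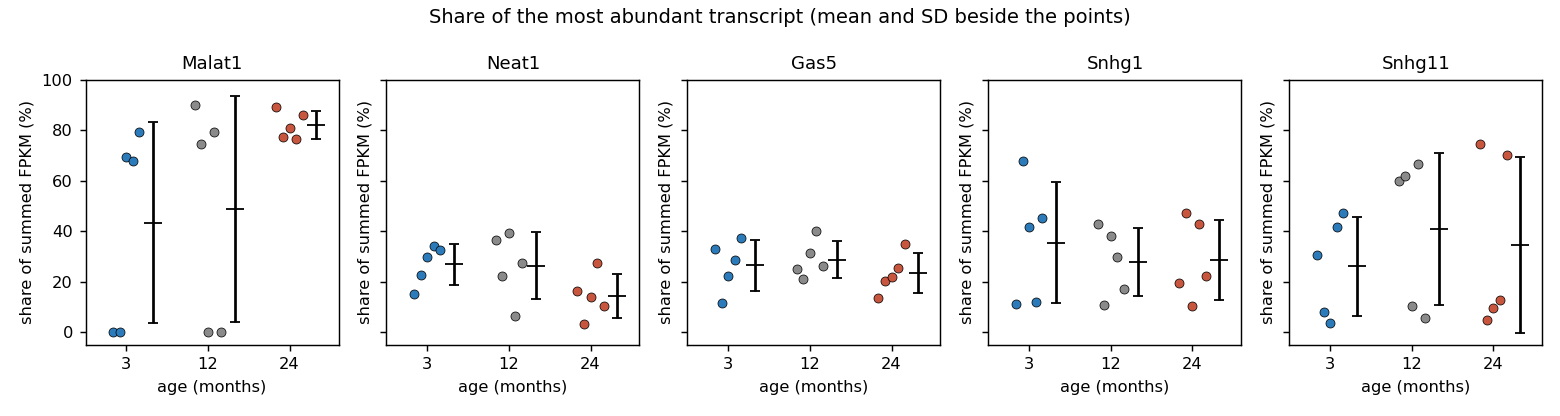
Share (%) of the summed FPKM of a gene taken by its most abundant transcript in each mouse, by age in months, with mean and SD of 5 mice. The Malat1 share was 0 in 4 mice and at least 67.8% in the other 11, and the Snhg11 share ran from 3.78% to 74.6%.

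Across all forms, 76 of the 77 transcripts could be tested at 24 against 3 months. None passed the adjusted threshold (0.0192% of 124719 transcripts did), 4 had an unadjusted p under 0.05 (7.90% of transcripts did), and 1 of these, MSTRG.17547.1 of Malat1, also differed by more than 1 on the log2 scale (0.795% did). In none of the 76 did the ages fail to overlap (2.13% did). The fourth form with an unadjusted p under 0.05 was a minor Gas5 transcript (ENSMUST00000160497) that averaged 0.0622 ± 0.0535 FPKM at 3 months and 0.168 ± 0.0739 FPKM at 24 months (adjusted p = 0.587 in limma, unadjusted p of 0.0316).

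Gas5, which takes its name from growth arrest, had close to the same mean in young and old kidneys. Its summed FPKM was 24.1, 18.5, 16.1, 19.6 and 26.9 in the young mice, 18.9, 16.1, 20.9, 19.8 and 15.7 at 12 months, and 20.4, 16.7, 20.4, 23.4 and 24.8 in the old mice. The ages overlapped, although the mice of 12 months reached only 20.9, with a mean of 18.3 ± 2.26. The means at 3 and 24 months were 21.1 ± 4.38 and 21.1 ± 3.11 (log2 difference 0.02, SE 0.15, adjusted p = 0.969 in limma). Its within-age SD was 0.23 on the log2(FPKM + 1) scale, with 43.3% of the 13446 genes below it, and 0.15 in FPM, with 11.6% below it.

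That total came from 26 transcripts, 25 of them annotated, at chr1:161034422-161038539. The spliced form ENSMUST00000162558 (502 bases in 12 exons) led in 11 of 15 mice with a mean of 5.42 FPKM and a range from 2.14 to 10.1 FPKM. It was followed by ENSMUST00000159706 at 2.48 FPKM and the assembled MSTRG.2332.5 at 2.42 FPKM, the latter listed at 0 in young mouse 5 and at 5.78 FPKM in young mouse 6. Of the 26, 20 are annotated as retained introns and together made up 38.6% of the sum. The annotation places 10 snoRNA genes inside Gas5, and the circle that holds Snord80 had estimated counts between only 14 and 83.7 per mouse. Its FPKM was 3.50 ± 1.62 at 3 months and 3.00 ± 0.850 at 24 months (edgeR adjusted p = 0.785).

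Snhg1 (chr19:8723475-8726443) had 6.15, 4.18, 4.71, 7.66 and 4.01 FPKM in the young mice, 5.45, 5.31, 4.79, 3.70 and 3.32 FPKM at 12 months and 4.09, 3.76, 4.95, 4.06 and 6.83 FPKM in the old mice. Each age had high and low mice, and the old and young means were 4.74 ± 1.25 and 5.34 ± 1.54 (log2 difference -0.14, SE 0.19, adjusted p = 0.752 in limma). Of its 16 transcripts 14 are annotated as retained introns, which held 52.4% of the sum, and 8 snoRNA genes lie inside it. The full spliced form ENSMUST00000206155 was listed at 0 in 6 mice and reached 3.83 FPKM in mouse 8. ENSMUST00000205909, a spliced form that starts further downstream, was above 0 in all mice, at 0.509 to 2.83 FPKM, and ENSMUST00000206961 averaged 0.614 FPKM.

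Snhg11 (chr2:158375638-158386145) had 17.1, 10.7, 17.6, 15.1 and 16.9 FPKM in the young mice, 19.7, 20.8, 12.97, 18.4 and 17.1 FPKM at 12 months, and 22.9, 10.5, 9.75, 10.2 and 14.9 FPKM in the old mice. Old mice held both the highest value, in mouse 31, and the 3 lowest, in mice 32 to 34. The means were 13.7 ± 5.57 at 24 months and 15.5 ± 2.84 at 3 months (log2 difference -0.22, SE 0.23, adjusted p = 0.679 in limma). Among annotated forms its 5864-base transcript ENSMUST00000109488, which GENCODE types as protein coding, split the mice. It had at least 5.22 FPKM in mice 5, 8, 9, 17, 18, 20, 31 and 35 and at most 1.35 FPKM in the other 7, and each age held mice of both kinds. An assembled form of 5898 bases over almost the same span, MSTRG.21318.3, averaged 1.49 FPKM and reached 10.5 FPKM. Mouse 7, low for ENSMUST00000109488 at 0.67 FPKM, had 83.6 FPM over all Snhg11 forms. How reads were divided between these similar forms was not tested. ENSMUST00000149303, typed as a target of nonsense-mediated decay, averaged 2.50 FPKM and the assembled MSTRG.21318.2 2.11 FPKM.

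Kcnq1ot1 was listed as 1 unspliced transcript of 84395 bases (chr7:143212155-143296549, minus strand), antisense to the potassium channel gene Kcnq1. It had 1.5005, 4.31, 3.13, 4.27 and 3.53 FPKM in the young mice, 3.65, 3.91, 3.16, 3.38 and 3.60 FPKM at 12 months, and 3.85, 3.53, 3.76, 3.92 and 3.78 FPKM in the old mice. Young mouse 5 was well below all others, and the coefficient of variation was 34.3% at 3 months, 8.05% at 12 months and 3.91% at 24 months. The log2 difference between 24 and 3 months was 0.18 (SE 0.19, adjusted p = 0.678 in limma), and without mouse 5 it was -0.0040 (adjusted p = 0.988). Because of its length the mean level of 3.55 FPKM stood for 299.8 FPM. On the opposite strand a Kcnq1 transcript (ENSMUST00000009689) had 3.82 ± 0.490 FPKM at 3 months, 3.47 ± 0.824 at 12 months and 2.19 ± 0.844 at 24 months. No test is given for this single form, which is only part of the gene. Summed over its transcripts, Kcnq1 had 7.41 ± 2.06 FPKM at 3 months and 5.41 ± 2.01 FPKM at 24 months, with overlapping ages and a log2 difference of -0.41 (adjusted p = 0.423 in limma).

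Meg3 (chr12:109541001-109571726) stayed between 0.0256 and 0.283 FPKM, with 7 annotated transcripts of which none reached 0.5 FPKM. The leading ones were ENSMUST00000129245, ENSMUST00000128458 and ENSMUST00000143272, and the first was listed at 0 in 8 of the 15 mice. The means of the gene were 0.0921 ± 0.0622 at 3 months, 0.182 ± 0.0917 at 12 months and 0.105 ± 0.0987 at 24 months, and the test gave adjusted p values of 0.925 for 24 against 3 months and 0.422 for 12 against 3 months in limma. H19 (chr7:142575529-142578143, 1 transcript of 2286 bases, ENSMUST00000136359) reached at most 0.113 FPKM, in old mouse 35. It was above 0 in 4 of 5 young mice, 2 of 5 at 12 months and 5 of 5 old mice. No difference between ages was detected for either gene.

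Other genes of the same pathways were followed as lists. None of the 13 paraspeckle proteins passed the adjusted threshold at 24 against 3 months, 3 were higher and 2 lower at an unadjusted p under 0.05 (the level that 14.9% of all genes reached), and their median log2 difference was 0.10, beside 0.05 over all genes with a mean of at least 1 FPKM. Hnrnpk and Nono had log2 differences of 0.14 and 0.11. Of 8 nuclear speckle proteins 0 passed and 1 was higher at an unadjusted p, and Srrm2, Son and Sf3b1 had log2 differences of -0.11, 0.13 and 0.24.

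Among the 15 other snoRNA host genes tested, 0 passed and 3 were higher at an unadjusted p, beside 14.9% of all genes in either direction. Their median log2 difference was 0.21, beside 0.02 over all genes tested and 0.05 over those with a mean of at least 1 FPKM. Snhg14, the most abundant, averaged 16.5 ± 0.980 FPKM at 3 months and 20.4 ± 2.29 FPKM at 24 months (limma log2 difference 0.29, adjusted p = 0.138), Snhg20 had a log2 difference of 0.66 with an adjusted p of 0.670, and Snhg3 had 0.42 with 0.213. Of 10 nonsense-mediated decay factors 0 passed, 1 was higher and 4 lower at an unadjusted p, beside the same 14.9%. Their median was -0.09, beside the same 0.02 and 0.05. The kinase Smg1 had a lower estimate (-0.24, adjusted p = 0.173 in limma) and the endonuclease Smg6 a higher one (0.36, adjusted p = 0.0999 in limma).

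The imprinted neighbours also gave no call. Of 9 genes near Kcnq1ot1 0 passed and 1 was higher at an unadjusted p, beside 1.22% and 14.9% of all genes in either direction. The log2 differences were -0.05 for Slc22a18, 0.02 for Cd81 and 0.11 for Nap1l4. None of 5 neighbours of Meg3 had an unadjusted p under 0.05, beside the same 14.9%. Rian, Dio3 and Dlk1 averaged 0.352, 0.0917 and 0.0896 FPKM. Igf2, the paternal partner of H19, averaged 0.463 FPKM and had a log2 difference of 0.11 (adjusted p = 0.545 in limma). Of 13 other known lncRNAs 0 passed and 3 were higher at an unadjusted p, beside the same 1.22% and 14.9% of all genes. Their median was 0.02, beside 0.02 over all genes tested. The 3 most abundant, Firre, Mir22hg and Tug1, had log2 differences of 0.02, 0.70 and -0.58. None of these lists had a member past the adjusted threshold in the other comparisons either. There only 0.250% of all genes passed at 12 against 3 months and 0.00310% at 24 against 12 months, so short lists could hardly hold one.

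Marker genes of the kidney's other cell types were read beside these results, for 24 against 3 months. No marker passed the adjusted threshold. At an unadjusted p under 0.05, 2 of 3 fibroblast, 3 of 5 immune cell, 1 of 3 endothelial, 1 of 5 adrenal and 1 of 3 neuronal markers were higher and 1 of 3 proximal tubule markers was lower, beside 14.9% of all genes in either direction. The summed FPKM of the fibroblast markers ran from 12.6 to 31.1 in young and from 24.5 to 40.6 in old mice, and that of the immune markers from 5.43 to 14.5 and from 9.24 to 23.1. The part of these cells in the levels of the 8 genes was not tested. Of the adrenal markers the one that was higher was Star, with 1.40 ± 0.306 FPKM at 3 months and 2.45 ± 0.494 FPKM at 24 months (adjusted p = 0.0984 in limma). Cyp11a1 averaged 0.0104 FPKM, and the neuronal markers summed to at most 0.239 FPKM in any mouse. The ages did not overlap for Star, for Cd79a of the immune and for Syt1 of the neuronal markers, beside 4.73% of all genes. Cd79a had 0.0830 ± 0.0741 FPKM at 3 months and 0.521 ± 0.215 FPKM at 24 months (adjusted p = 0.0521 in limma). Syt1 had 0.0402 ± 0.0248 FPKM at 3 months and 0.140 ± 0.0596 FPKM at 24 months (adjusted p = 0.111 in limma).

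Pairs with a shared location or function were compared over the 15 mice on log2(FPKM + 1). No pair passed a permutation test with 100000 resamples, 2-sided and adjusted over the 4 pairs. Neat1 and Malat1, neighbours on chromosome 19, had a Pearson r of -0.32 (permutation p = 0.246, adjusted p = 0.565) and a Spearman rho of -0.32 (permutation p = 0.243, adjusted p = 0.534). Gas5 and Snhg1 had an r of 0.26 and a rho of 0.23 (permutation p = 0.339 and 0.405, adjusted p = 0.565 and 0.534). For H19 and Igf2 r was 0.08 and rho 0.17 (permutation p = 0.768 and 0.534, adjusted p = 0.768 and 0.534), and for Meg3 and Rian r was -0.22 and rho -0.24 (permutation p = 0.424 and 0.388, adjusted p = 0.565 and 0.534). With each age centred, r was -0.12, 0.22, -0.10 and -0.08 for the 4 pairs in this order, and without the 2 mice farthest from the median of the first gene it was -0.32, 0.31, 0.23 and -0.26.

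The genes whose levels ran most alike over the 15 mice are given as a description, from the 13446 genes with a mean of at least 1 FPKM. For Kcnq1ot1 they were Crebl2, Gm14002 and Gm44669 with r of 0.95, 0.94 and 0.91, which fell to 0.54, 0.64 and 0.46 without the 2 mice farthest from the median. For Malat1 they were Ikzf2, Pgm2l1 and Adcy7 (0.81, 0.79 and 0.79), for Neat1 Ubr2, Nipsnap1 and Mrpl42 (0.82, 0.79 and 0.79), and for Gas5 Ube2w, Plet1 and Fcgbp (0.85, 0.83 and 0.82). Snhg11 ran most like Ankrd13a, Sox4 and Gm13502 (0.84, 0.79 and 0.77) and Snhg1 like Cmtm4, Dhx9 and Phtf1 (0.77, 0.76 and 0.75). Meg3 ran most like Gm5905, Gm16580 and Gm5786 (0.91, 0.87 and 0.86) and H19 like Slc10a5, Fstl1 and Npy1r (0.77, 0.74 and 0.73), and both were near 0 in all mice. Without the 2 farthest mice the r of H19 with Slc10a5 was -0.09 and with Npy1r 0.42, that of Snhg1 with Dhx9 was 0.48, and that of Malat1 with Ikzf2 was 0.59. The others of these genes, for members other than Kcnq1ot1, stayed between 0.63 and 0.89. The points share library preparation and scaling, and no test was made.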

How the data were processed

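Reads were trimmed with Cutadapt, mapped with HISAT2 and Bowtie2 per the paper's methods (the submitters' processing notes name TopHat2) and assembled and merged with StringTie on GRCm38. The deposited linear table holds, per transcript and mouse, the authors' FPKM and mean coverage (signal), both from StringTie. The deposited circular table holds the authors' estimated counts and FPKM, and the circle caller is not given in the sources used here. The labels describe ribosomal RNA removal, whereas the paper describes selection with oligo(dT). Selection would lower RNAs with little or no poly(A) tail, circles included, so levels between genes depend on which was used. Groups came from the age label, and no column belonged to other samples. The labels do not state litters or cages.

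FPKM were summed per gene over class codes =, c, j and o. Coverage served only to derive depth. StringTie FPKM are estimates and not whole reads, so no counting interval was given. Genes and transcripts were compared with limma 3.58.1 (R 4.3.3, lmFit and eBayes with an intensity trend), which was fitted to log2(FPKM + 1) over the mice of both ages, with Benjamini-Hochberg adjustment over all tested features. DESeq2 or edgeR, named in the study's methods, need counts and were not used on FPKM. Circles were tested with edgeR 4.0.16 (quasi-likelihood, TMM) on estimated counts rounded to whole numbers, with DESeq2 1.42.0 as the alternative, and these circle tests were added after the data were seen. Shares used exact permutation tests and correlations 100000 permutations in Python 3.11.15 with scipy 1.17.1. On simulated data for 24 against 3 months, limma recovered 84.5% of 200 genes changed by a log2 difference of 1.5 among 31755, and 42% of 200 transcripts among 124719. The changed features were drawn only from those with a mean of at least 1 FPKM. These shares therefore do not cover Meg3, H19 or transcripts below that level. Nor do they stand for Malat1, whose within-age SD of 1.37 was far above the median of 0.25 among genes at that level. Among unchanged features 21 genes and 13 transcripts were called.

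Named were the 8 genes, the 3 transcripts of each with the highest mean and any with an unadjusted p under 0.05, the 3 most correlated genes, and of each list those past the test and at most 3 others by mean level. Some genes that this rule names are not reported here. The members and lists were chosen with earlier results of these data known.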

Additional observations from a re-analysis of the deposited data

Results flagged for a closer look

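Of 24 combinations of gene and age, 1 had a mouse standing far from the other 4 by Dixon's test at the 95% level, where chance gives about 1 in 20. In the 24-month-old mice Meg3 was at 0.272 FPKM in mouse 31, against 0.0297 to 0.0965 FPKM in the other 4 (gap over range 0.725). The old mice with and without this mouse differed from the young mice by 0.01 and -0.04 on the log2 scale.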

How the results depend on the processing

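None of the 8 genes or their transcripts passed the adjusted threshold under any alternative run. The alternative limma fits gave 426 estimates for the 8 genes over the 3 comparisons, and the lowest adjusted p among them was 0.106. The sign turned in 29 of these estimates. For 24 against 3 months, with a common median Meg3 was at -0.040, Gas5 at -0.038 and H19 at -0.027. With matching transcripts only (class code =) Snhg11 was at 0.25, and in FPM, an alternative chosen after seeing the data, Meg3 was at -0.090 and Gas5 at -0.0063. For 12 against 3 months H19 was at -0.0017 with a pseudocount of 0.1 and at -0.079 with a common median, and in FPM Meg3 was at -0.10 and Snhg11 at -0.14. For 24 against 12 months Neat1 was at 0.043 and Meg3 at 0.0100 in FPM. Leaving out 1 mouse moved the estimates for 24 against 3 months between -0.069 and 0.11 (Gas5), -0.037 and 0.044 (Meg3) and -0.0040 and 0.27 (Kcnq1ot1), those for 12 against 3 months between -0.078 and 0.19 (Kcnq1ot1) and -0.012 and 0.0089 (H19), and those for 24 against 12 months between -0.067 and 0.11 (Snhg1) and -0.00069 and 0.039 (H19). The estimate for Malat1 at 24 against 3 months ran from 1.14 to 1.997 without 1 mouse and from 0.56 (FPM) to 1.68 under the other alternatives.

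The number of all genes past the test moved more. For 24 against 3 months it was 386, and 115 with a common median, 678 with all 15 mice in one fit, 239 with a robust prior, 190 with class code = only and 109 to 411 without 1 mouse. For 12 against 3 months it was 79, then 28, 299, 24 and 27 under the same settings and 12 to 70 without 1 mouse. For 24 against 12 months it was 1, then 3 with a pseudocount of 0.1, 0 with a mean of at least 1 FPKM, 0 with all 15 mice in one fit and 1 to 7 without 1 mouse. The cause was not tested.

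The difference in the share of the leading transcript ranged without 1 mouse from -15.8 to -9.88 points (Neat1), 27.8 to 47.7 (Malat1), -13.2 to 1.02 (Snhg1) and -1.76 to 15.7 (Snhg11), and with class code = only it was -6.07 for Snhg11 and -18.9 for Neat1 (exact permutation p = 0.0952), and 43.2 for Malat1 (exact permutation p = 0.0159). The correlation of H19 and Igf2 turned to -0.10 with each age centred, and that of Meg3 and Rian to 0.10 with a common median. No paired analysis was possible because the ages share no replicate numbers. The levels of Meg3 and H19 were low, and 5 mice per age leave changes of Malat1 of up to 9.81-fold possible.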
